A study of Nicotiana benthamiana with 7 samples.

Results

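The stretch described here is the sequence upstream of the GFP start codon together with the 5′ part of the GFP coding sequence, as far as 40 positions before the region matched by the sprayed dsRNA. Of the 1931 positions with deposited coverage, 1081 belong to it: 852 upstream positions (GFP positions -851 to 0) and 229 coding positions (GFP positions 1 to 163 and 188 to 253). GFP position 1 is the first base of the start codon. The 24 positions from 164 to 187, which match the siRNA#164 used elsewhere in the study as a positive control, were left out. The choice rests on positions, not on levels of coverage. What the upstream sequence is (promoter, leader or other) is not given in the sources used here, and no position in the plant genome was used.

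The study asked whether naked dsRNA delivered by high-pressure spraying is processed into siRNAs in leaves. Homozygous 16C plants of Nicotiana benthamiana carry a GFP transgene and wildtype (WT) plants do not. Both were sprayed at 6 bar, when 10 cm tall, with 200 μl of dsRNA-midGFP at 20 ng/μl, a dsRNA of 139 nt that matches GFP positions 294 to 432, and small RNAs of 2 sprayed mature leaves per plant were sequenced 5 days later. There were 3 libraries of each, 16C-ds and WT-ds, each called a biological replicate by its label. A single 16C plant sprayed with water is not analysed here, because no coverage column carries its name, so no value below has a water control. A column headed 16C4 matches the labels of no sample and was not used. The 16C-ds libraries held 7186316 to 7511064 reads in total and those of WT-ds 8363721 to 8824820. All libraries come from whole leaves, so fewer cells with GFP reads and fewer reads per cell cannot be told apart.

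In plants, dsRNA is cut by Dicer-like proteins (DCLs) into siRNAs, which guide cleavage of matching transcripts. An RNA-dependent RNA polymerase, RDR6, can copy a targeted transcript into new dsRNA, and the secondary siRNAs that follow may match the transcript outside the region targeted first, which is known as transitivity. Fragments of a transcript that is simply being degraded can also enter a small RNA library. Reads on the 5′ side of midGFP lie outside the sprayed sequence, and the deposited coverage gives neither their strand nor their length.

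The last 66 coding positions, GFP positions 188 to 253, are shown because they are the nearest bases 5′ of midGFP that were compared and because both groups can be read there without the siRNA#164 site. Their sense strand, from the deposited region of interest, is given 5′ to 3′, with a capital at GFP position 199. Coverage rose at this base in all 3 16C-ds libraries, but only by 2, 1 and 1 reads in replicates 1 to 3. The base was picked after the data had been seen.
GFP 188 to 253: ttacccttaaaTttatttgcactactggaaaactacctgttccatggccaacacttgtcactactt
The GC content of this stretch is 37.9%, against 53.2% in midGFP and 46.4% over the whole 605-nt region of interest.

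Coverage of the 5′ coding part was present along nearly its whole length in 16C-ds and almost absent from WT-ds. Over GFP positions 1 to 163, a position was covered by 23.4, 11.02 and 18.8 reads on average in 16C-ds replicates 1 to 3, and by 0.785, 0.939 and 0.515 reads in WT-ds replicates 1 to 3. Every 16C-ds library lay above every WT-ds library. The group means were 17.7 ± 6.26 (SD, n = 3) and 0.746 ± 0.214 (SD, n = 3), a difference of 16.996 reads per position (2-sided exact permutation test, p = 0.1, the smallest that 3 against 3 libraries can give). In the authors' moving average over 10 nt, whose last windows here run into the siRNA#164 site, this difference turned to -131 and the groups overlapped (p = 0.2 in the exact permutation test). In the raw coverage of 16C-ds, 163, 161 and 163 of the 163 positions had at least 1 read, while in WT-ds 26, 83 and 26 had any.

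Closer to midGFP, at GFP positions 188 to 253, WT-ds was still closer to 0. The mean coverage was 21.3, 8.74 and 10.1 reads in the 16C-ds libraries. In WT-ds it was 0.0303, 0 and 0, the only signal being 2 reads at GFP position 188 of replicate 1, directly next to the siRNA#164 site. The groups did not overlap, with 13.4 ± 6.91 against 0.0101 ± 0.0175 reads per position (SD, n = 3 each; exact permutation test, p = 0.1). Adjusted over the 3 stretches tested, the upstream one included, p stayed at 0.1 for each.

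**Figure D1:**
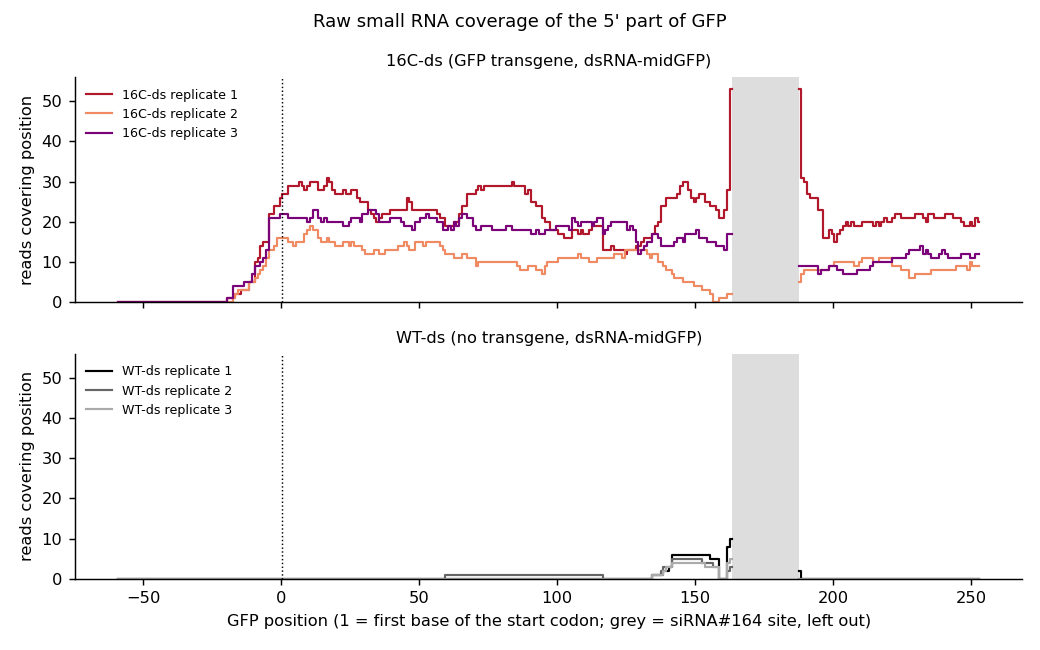
Raw coverage (reads covering each position, vertical axis) by GFP position for each library, with 16C-ds in the upper and WT-ds in the lower panel and the siRNA#164 site masked in grey. Coverage in 16C-ds rose within the last 20 nt before the start codon and stayed between 12 and 53 reads at GFP positions 1 to 163 in replicate 1, whereas WT-ds reads were found mostly at GFP positions 135 to 163.

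Relative to midGFP, the 5′ coding coverage was low in both groups. Taking GFP positions 1 to 163 and 188 to 253 together, mean coverage came to 22.8, 10.4 and 16.3 reads for 16C-ds and to 0.568, 0.668 and 0.367 for WT-ds. Scaled to 1000000 total reads of each library, these were 3.18, 1.38 and 2.21 against 0.0679, 0.0757 and 0.0435. As a percentage of the midGFP mean of the same library, 16C-ds had 8.23, 8.99 and 7.27 and WT-ds had 0.165, 0.237 and 0.124. The 3 values of 16C-ds lay closer together on this scale (8.16% ± 0.861, SD, n = 3) than as reads, and far above those of WT-ds (0.175% ± 0.0572, SD, n = 3; exact permutation test, p = 0.1, a comparison chosen after the data had been seen).

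The level of the 5′ coding part also exceeded that of the coding part on the other side of midGFP in each 16C-ds library. At GFP positions 473 to 792, which end with the stop codon, the mean coverage was 16.8, 8.11 and 12.9 reads in replicates 1 to 3. The 5′ mean was 1.36, 1.28 and 1.26 times as high, a difference of 3.89 ± 1.95 reads (SD, n = 3; 2-sided exact sign-flip test, p = 0.25, the smallest that 3 libraries can give). This order held in all 3 libraries for GFP positions 1 to 163, at 1.40, 1.36 and 1.45 times the 3′ mean. It did not hold in each for GFP positions 188 to 253, which stood at 1.27, 1.08 and 0.783 times the 3′ mean and at 0.911, 0.793 and 0.539 times the mean of GFP positions 1 to 163.

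**Figure D2:**
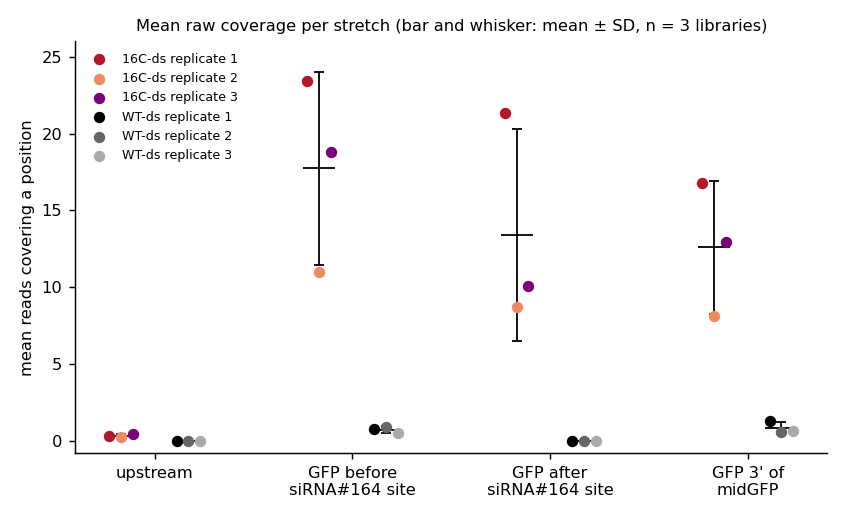
Mean raw coverage per position (vertical axis, reads) of each library in the upstream stretch, in GFP before and after the siRNA#164 site and, for comparison, in GFP 3′ of midGFP; points are libraries, and bar and whisker give mean ± SD (n = 3). The 16C-ds points lie above the WT-ds points in each of the stretches, by 16.996 reads in GFP before the site and by 0.355 reads upstream.

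Upstream of the start codon, coverage was present in 16C-ds only. Averaged over the 852 upstream positions, 16C-ds replicates 1 to 3 had 0.356, 0.236 and 0.473 reads, and no read was found in any WT-ds library. The difference was 0.355 reads per position (16C-ds SD 0.119, n = 3; exact permutation test, p = 0.1). At these depths a count of 0 allows up to 3 reads, which is 0.359, 0.340 and 0.356 per 1000000 total reads for WT-ds replicates 1 to 3 and covers counting error only. Within 16C-ds, 13.4%, 9.51% and 20.5% of the upstream positions were covered, and the coding mean was 64.2, 43.9 and 34.4 times the upstream mean. Coding coverage exceeded upstream coverage in 3 of 3 libraries, by 16.1 ± 6.17 reads per position (SD, n = 3; exact sign-flip test, p = 0.25).

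Most of the upstream signal was at the very edge of the coding sequence. An unbroken run of covered positions that continued into GFP began at GFP position -19 in replicate 1, -17 in replicate 2 and -19 in replicate 3, thus 20, 18 and 20 nt before the start codon. The 3 plants therefore shared this edge to within 2 nt. This short run alone made up 69.0%, 68.7% and 49.1% of all upstream coverage. Coverage of at least 5 reads, the level used here to call the start of coverage, was first reached at GFP positions -11, -11 and -13, a mean of -11.7 ± 1.15 (SD, n = 3).

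The rise was steep. At the last upstream base 26, 16 and 22 reads were counted, and at the first base of the start codon 27, 16 and 22. Set against the mean of the first 50 coding positions (26.02, 14.5 and 20.7 reads), coverage had reached 50% of that level at GFP positions -7, -7 and -6 and 90% at -2, -2 and -4. The start codon itself thus lay on the plateau and not on the slope. The largest rise common to the 3 libraries was at GFP position -4, where coverage rose by 7, 2 and 8 reads from one base to the next.

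**Figure D3:**
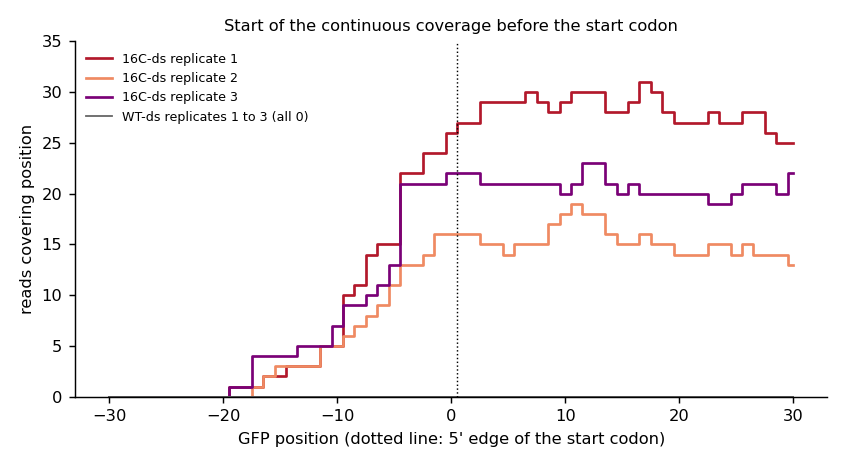
Raw coverage (reads, vertical axis) from 30 nt before to 30 nt after the 5′ edge of the start codon, marked by a dotted line; each coloured line is a 16C-ds library, and the grey line, which lies on 0, stands for the 3 WT-ds libraries. The 3 rises begin at GFP positions -19, -17 and -19 and reach 26, 16 and 22 reads at the last upstream base.

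Further upstream, only scattered reads were found. Before the unbroken run, the coverage of replicates 1 to 3 requires at least 5, 3 and 8 reads (exact Poisson 95% intervals 1.62 to 11.7, 0.619 to 8.77 and 3.45 to 15.8, counting error only). They formed 5 runs of 17 to 24 nt in replicate 1, 3 runs of 18 to 24 nt in replicate 2 and 5 runs of 19 to 50 nt in replicate 3. In replicates 1 and 2 each run was 1 read high. Replicate 3 held the only higher ones, up to 3 reads at GFP positions -848 to -799 and up to 2 reads at -795 to -754, and these put its first position with at least 2 reads at -847, against -16 in both other libraries.

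The scattered runs overlapped in part between pairs of libraries, but at no position in all 3. That of replicate 1 at GFP positions -832 to -815 lay within the highest run of replicate 3. Of the 832 positions before GFP position -19, 261 were covered in at least 1 of the 16C-ds libraries, 51 in at least 2 and 0 in all 3. No library had a read from GFP position -469 to -202, a stretch of 268 nt. The scattered run nearest to the start codon, 1 read high, was that of replicate 1 at GFP positions -201 to -185, and from -184 to -20 another 165 nt were empty in all 6 libraries. Without the unbroken run, the upstream mean fell to 0.113, 0.0757 and 0.246 reads per position in 16C-ds against 0 in WT-ds (exact permutation test, p = 0.1). This alternative was added after the data had been seen, and its cut was set from the 16C-ds coverage.

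**Figure D4:**
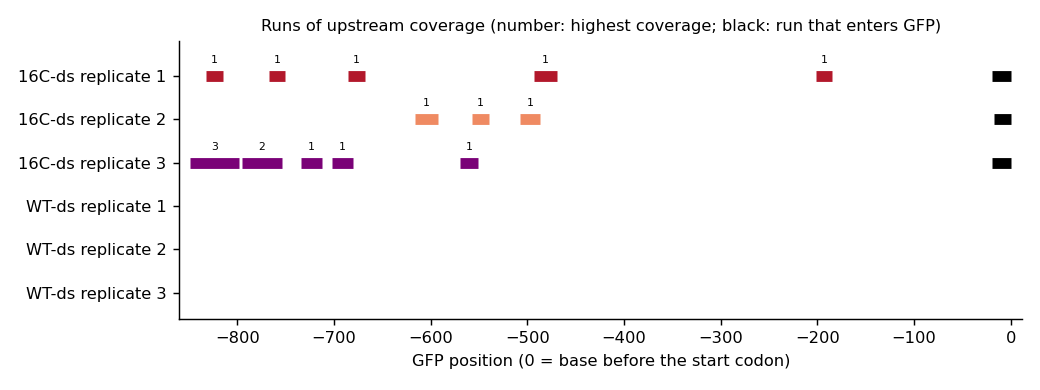
Position (horizontal axis, GFP position up to the start codon) of every run of upstream coverage in each library, with the highest coverage of the run as a number above it and the run that enters GFP in black. The scattered runs of the 3 16C-ds libraries, 5, 3 and 5 in number, lie before GFP position -184 and the WT-ds lines are empty.

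Inside the coding part, the 3 plants differed in the height of coverage and in its course towards the siRNA#164 site. The first 50 positions were covered by 26.02, 14.5 and 20.7 reads, the next 50 by 24.8, 10.8 and 18.96, and GFP positions 101 to 134 by 15.5, 11.5 and 18.5. The mean of the last of these windows was lower than that of the window before it in replicate 1, but not in replicate 2 and only slightly in replicate 3. Before the site, replicates 1 and 3 both had their lowest value, 12 reads, in that window, at GFP positions 125 and 130. Replicate 2 fell towards the site instead, down to 0 reads at GFP positions 157 and 158, the only ones of the 229 5′ coding positions that lacked a read in a 16C-ds library. Replicate 3 varied least along GFP positions 1 to 163, with 12 reads at the lowest and 23 at the highest position.

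Taken over all positions before the site, the maxima differed in place between the libraries. Replicate 1 reached 53 reads at GFP position 163 and again at 188, on both sides of the site that was left out. Apart from GFP position 163, directly next to the site, its highest value before the site was 31 reads, at GFP position 17. Replicate 2 had its highest value of 19 reads at GFP position 11. Replicate 3 had its highest of 23 reads at GFP positions 12, 13 and 32 to 34. At position 12, replicate 1 had 30 reads. After smoothing over 11 nt, peaks that stood out by at least 25% of the coding mean were found at GFP positions 8, 12 and 81 in replicate 1, at 13, 127, 130 and 216 in replicate 2 and at 30 in replicate 3. The peaks at 8 and 12 in replicate 1 had the same smoothed height, as had those at 127 and 130 in replicate 2. Each of these pairs can be read as a single flat top. The peaks at 12 and 13 lay 1 nt apart in replicates 1 and 2. No peak was shared by all 3 libraries within 10 nt, and 1 was when 20 nt were allowed. With replicate 3 left out, 1 peak was shared by the remaining libraries, which is a looser criterion.

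Across the 163 positions before the site, Pearson's r between libraries was -0.0884 for replicates 1 and 2, 0.0827 for 1 and 3 and 0.679 for 2 and 3. Neighbouring positions share reads, so these values only describe the profiles. Without the 30 positions next to the site they were 0.212, 0.279 and 0.465.

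At the scale of single bases, 10 positions had a rise in coverage in all 3 16C-ds libraries, a comparison chosen after the data had been seen. No share over the whole coverage was set beside this count, so it only describes the profiles. They were GFP positions -9, -7, -6, -4, 11, 26, 66, 135, 162 and 199, of which 4 are upstream. Besides -4, none rose by at least 2 reads in each library. A fall common to the 3 libraries, by 2 reads in each, occurred at GFP position 14.

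WT-ds coverage was low, and most of it lay in the same run of positions. All 3 WT-ds libraries held a run at GFP positions 135 to 158, with the same first and last base in each. Its mean coverage was 4.58, 3.79 and 3.13 reads, and its highest 6, 5 and 4. It made up 85.9%, 59.5% and 89.3% of the coverage of GFP positions 1 to 163 in these libraries. As numbers of reads the share was smaller. The coverage of this run requires at least 6, 5 and 4 reads, against 10, 3 and 5 at GFP positions 162 and 163, where the mask cuts reads off. The run is 24 nt long and begins 29 nt before the siRNA#164 site.

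Between this run and the site, GFP positions 159 to 161 were empty in WT-ds. At GFP positions 162 and 163, directly next to the site, coverage was 8 and 10 reads in replicate 1, 2 and 3 in replicate 2, and 4 and 5 in replicate 3. Apart from these reads and those at GFP position 188, the only WT-ds signal was in replicate 2, 1 read high from GFP position 60 to 116. This run of 57 nt accounted for 37.3% of the coverage of that library before the site, and the other two libraries had no read there.

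The siRNA#164 site itself was covered by 16753, 9677 and 8890 reads on average in WT-ds replicates 1 to 3, so that the run at GFP positions 135 to 158 amounted to 0.0274%, 0.0392% and 0.0352% of it. Both values had the same order over the 3 libraries. In 16C-ds the site had 8438, 1324 and 6444 reads, while GFP positions 135 to 158 had 25.2, 5.71 and 15.6, against 14.2, 12.7 and 15.9 over the preceding 10 nt. Coverage rose at GFP position 135 by 1, 1 and 2 reads in 16C-ds and by 1 read in each WT-ds library, and at position 162 by 5, 1 and 4 reads in 16C-ds and by 8, 2 and 4 in WT-ds. Whether the reads next to the site belong to it was not tested. Without GFP positions 135 to 163, an alternative added after the data had been seen, the difference between groups before the site was 18.1 reads per position (exact permutation test, p = 0.1). Its cut was set from the WT-ds coverage and took out most of it, so it is no independent check of the separation.

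**Figure D5:**
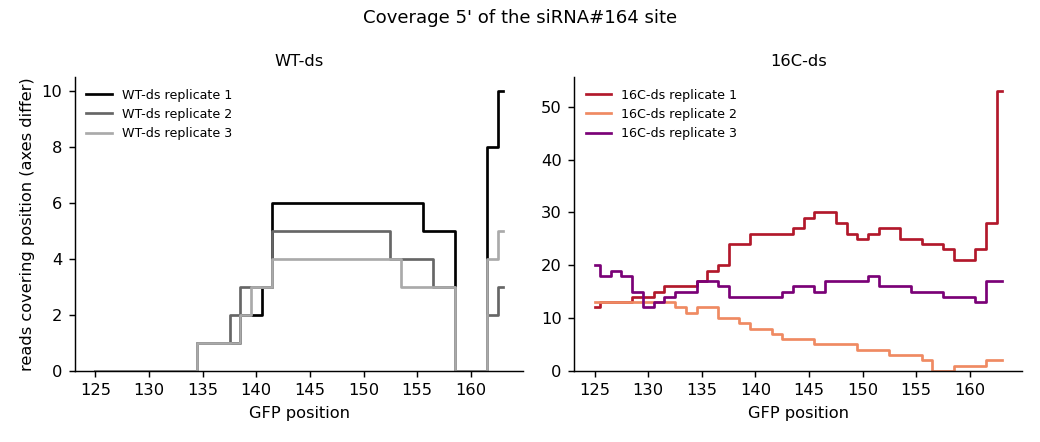
Raw coverage (reads, vertical axes that differ between panels) of the last 39 positions before the siRNA#164 site in WT-ds (left) and 16C-ds (right), one line per library. In WT-ds a run at GFP positions 135 to 158 reaches 6, 5 and 4 reads and is followed by 3 empty positions and a second rise, while the 16C-ds lines show no run with these ends.

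Position by position, coverage of every 16C-ds library exceeded that of every WT-ds library at 229 of the 1081 positions (21.2%), while over all 1931 positions the share was 38.7%. The low share comes from the upstream positions, of which 18 of 852 did so, the first at GFP position -17. In the coding part it was 145 of 163 positions before the site and 66 of 66 after it, together 211 of 229, or 92.1%, and on the 3′ side of midGFP it was 90.3% of 320 positions. The 18 coding positions at which the groups overlapped were GFP positions 143 to 158 and 162 to 163, inside or after the WT-ds run. At each of them 16C-ds replicates 1 and 3 were above every WT-ds library and replicate 2 was not. At none of the 1081 positions was every WT-ds library above every 16C-ds library, against 4.25% of all positions.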

How the data were processed

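Small RNA libraries of single plants were used as coverage per position. The authors removed adapters, mapped reads to the GFP sequence and deposited the raw coverage (a signal, reads covering each position), its moving average over 10 nt and normalised forms of it. The submitters' processing notes name Bowtie2 and SAMtools, with versions not given in the sources used here. The raw coverage of 16C-ds and WT-ds was used without filter. The columns named 16C1 to 16C3 and WT1 to WT3 were taken as the replicates of these numbers. 11 columns of values carry no name that matches a library and were not used, and sheets of read counts per length were not used here. GFP positions are table positions minus 852, which puts the 5′ edge of the midGFP coverage in WT-ds (the first position after these stretches where all of these libraries reach 10 reads) at GFP position 294. Where the coding sequence starts follows from the same count. The sequence printed was read from the deposited region of interest, which begins at GFP position 188.

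Means over positions were compared between groups by 2-sided exact permutation tests (3 against 3 libraries) and within 16C-ds by exact sign-flip tests, in Python 3.11.15 with numpy 2.4.6 and scipy 1.17.1, and adjusted by Benjamini-Hochberg over the 3 stretches. Plots were made with matplotlib 3.10.9. Groups were called apart where they did not overlap. The start of coverage was the first position with at least 5 reads. The least number of reads behind a run was the coverage at its first position plus all later rises within it. Positions named are the ends of runs, starts, extremes, peaks and common steps. Scripts were tested on simulated data. The alternatives were other denominators, the median, the moving average, other thresholds and windows, each library left out in turn and the replicate number as a block. The positions, stretches and tests were chosen with earlier results of these data known. Positions share reads and are not replicates; the replicates are plants.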

Additional observations from a re-analysis of the deposited data

How the results depend on the processing

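Of 71 alternatives, 63 kept the direction and the separation of the groups or libraries, or a count within 1.5 times. Many of these could not have come out otherwise, so the count does not measure robustness. Leaving a library out cannot undo a full separation, and a block leaves the difference as it was. Another denominator cannot turn a difference within a library or raise the WT-ds upstream value from 0. The median over upstream positions was 0 in every library (difference 0, exact permutation test, p = 1), since few positions were covered. With the moving average over 10 nt, whose windows at the last positions before the siRNA#164 site run into it, the difference before the site turned to -131 reads per position (exact permutation test, p = 0.2), and the same average raised coding minus upstream to 105 and 5′ minus 3′ coding coverage to 92.6. The mean start of coverage was at GFP position -765 for at least 1 read, -293 for at least 2 and -7.0 for at least 10, against -11.7 for 5. Shared peaks numbered 1 with a tolerance of 20 nt and 1 with smoothing over 21 nt, against 0, and from 0 to 1 with a 16C-ds library left out, the 1 arising without replicate 3. With a library left out, differences ran from 0.296 to 0.414 upstream, 14.2 to 20.4 before the site, 9.42 to 15.7 after it, 12.97 to 19.1 for coding minus upstream and 2.802 to 4.70 for 5′ minus 3′. With the replicate number as a block, the differences were 0.355, 16.996 and 13.4 (exact sign-flip test, p = 0.25, the smallest possible). Libraries with the same number had deviations from their group means that correlated by 0.341, -0.155 and -0.0813. Neighbouring positions share reads, so these values cannot show whether plants of the same number were handled together. The 16C-ds upstream signal rests on at least 31, 19 and 30 reads, which limits its precision.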
